A study of Caenorhabditis elegans with 2 samples.

Results

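The genes that encode the DREAM complex of the nematode *Caenorhabditis elegans* were examined as places where the zinc finger protein ZTF-23 was found on chromatin. There were 8 genes, lin-35, efl-1, dpl-1, lin-9, lin-37, lin-52, lin-53 and lin-54, out of 19973 annotated nuclear protein-coding genes. They were chosen by name as subunits of 1 complex, and were selected on results already seen in these peak lists, so their levels and counts are given as descriptions and were not tested. The data were chromatin immunoprecipitation followed by sequencing (ChIP-seq) from 1 group of 2 biological replicates. Both replicates were whole mid-stage embryos of strain RW12279, which carries a CRISPR insertion, TY1::EGFP::3xFLAG, in ztf-23. Worms were synchronized by egg bleaching, the age in the labels is 1.5 hours, and sonicated chromatin of 200 to 800 bp was precipitated. The description names an anti-GFP antibody, which would recognise the EGFP tag, while the antibody field of the labels names ztf-23. All cells of the embryo were pooled, so a region bound in few cells and a region bound weakly in many cannot be told apart. The control experiment named in the labels was not analysed here, and there was no second group to compare with.

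DREAM is a repressor complex best known for holding cell cycle genes off in cells that are not dividing. A pocket protein related to Rb, LIN-35, bridges an E2F-DP pair, EFL-1 and DPL-1, to a core called MuvB, made of LIN-9, LIN-37, LIN-52, LIN-53 and LIN-54. EFL-1 with DPL-1 binds E2F sites, LIN-54 binds a short element known as CHR, and in the worm most of these genes belong to the synMuv B class, which restrains vulval fates and keeps germline genes silent in the soma. ZTF-23 is not a DREAM subunit. The data show whether a ZTF-23 region lies beside each subunit's gene, not where DREAM itself binds and not whether the genes' expression depends on ZTF-23.

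Of the 8 genes, 5 had a region in the conservative list, the authors' list of regions that are reproducible between the replicates, with its summit (the position of greatest enrichment) within 1000 bp of the gene start. The genes were lin-35, lin-54, lin-53, lin-9 and efl-1, and in the same window 7.20% of all protein-coding genes had a conservative summit. Each of these 5 genes had 1 such region, and each summit lay upstream of the gene start, outside annotated protein-coding genes. Non-coding genes were not considered in placing summits inside or outside genes. The other 3 genes, lin-52, dpl-1 and lin-37, had none. By this window the subunits with a region included the pocket protein, the E2F and 3 of the 5 MuvB genes. Those without one were the DP partner and the other 2 MuvB genes. The window does not assign a region to a single gene. Only lin-35, lin-9 and efl-1 were themselves the nearest start to their conservative summit.

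The sequence around 3 of the summits is shown because it holds words of the kind that DREAM's own DNA-binding subunits recognise. All are RefSeq sequence of build WBcel235, read 5′ to 3′ on the strand of the gene, up to 100 bases to either side of the summit with annotated genes left out. Capitals mark the CHR-like word TTTGAA and the E2F-like words GCGGGAAA and GCGCGAAA, in either orientation. The efl-1 window is V:16965738-16965938 on the minus strand, from 263 to 63 bases upstream of the gene start. The lin-9 window is III:8904165-8904365 on the minus strand, from 234 to 34 bases upstream. The lin-54 window is IV:13240652-13240796 on the plus strand, from 392 to 248 bases upstream, and begins beside the start of the divergent gene rpl-12.
efl-1: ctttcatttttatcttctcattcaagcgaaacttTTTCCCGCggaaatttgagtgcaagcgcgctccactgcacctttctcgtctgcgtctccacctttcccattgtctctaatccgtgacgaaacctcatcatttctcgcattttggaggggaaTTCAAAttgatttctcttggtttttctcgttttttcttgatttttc
lin-9: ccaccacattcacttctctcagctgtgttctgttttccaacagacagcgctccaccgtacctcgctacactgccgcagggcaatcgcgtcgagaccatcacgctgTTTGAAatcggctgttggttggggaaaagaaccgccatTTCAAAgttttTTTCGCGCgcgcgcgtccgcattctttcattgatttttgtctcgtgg
lin-54: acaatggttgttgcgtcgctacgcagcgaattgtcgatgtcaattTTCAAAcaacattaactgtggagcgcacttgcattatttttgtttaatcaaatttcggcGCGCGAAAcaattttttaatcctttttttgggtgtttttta

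In the efl-1 window the reverse complement of GCGGGAAA lay 62 bp upstream of the summit and 225 bp upstream of the gene start. In the lin-9 window the reverse complement of GCGCGAAA lay 58 bp downstream of the summit, towards the gene, and 76 bp from its start, with 5 bases between it and the nearest TTTGAA. In lin-54, GCGCGAAA was found 63 bp downstream of the summit and 285 bp upstream of the gene start. Measured from the combined summits, the E2F-like words thus lay 58 to 63 bp away in the 3 windows, which were shown because they hold such words. This spacing did not extend to the other regions. The lin-53 word, not shown, lay 98 bp from its summit, and the lin-35 region held none within 150 bp. TTTGAA came closer, at 3 bp from the lin-54 summit and 8 bp from the lin-9 summit. At efl-1 it was hardly closer, at 58 bp beside 62 bp. These distances depend on the list that places the summit. The lin-9 summit, for example, lay 134 bp upstream of the gene start in the combined list, 119 bp in replicate 1 and 172 bp in replicate 2. At lin-54 there were 53 bases between the E2F-like word and the only TTTGAA within 150 bp of the summit. At efl-1 the TTTGAA nearest to the E2F-like word was a different one, 116 bp upstream of the summit and so outside the sequence shown, with 47 bases between them.

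Words were counted on both strands, around the 5 conservative summits and around all 2213 nuclear conservative summits. The 2213 were not limited to summits near coding gene starts, as the 5 were, so the shares are not matched for position. Within 150 bp of the summit, at least 1 of the 4 E2F-like words (GCGGGAAA, GCGCGAAA, GCGGCAAA and GCGCCAAA) was present at efl-1, lin-9, lin-53 and lin-54, 4 of the 5, and at 10.2% of all nuclear conservative summits. At lin-53 the word was GCGGGAAA, 98 bp from the summit and 140 bp upstream of the gene start. Within 50 bp of the combined summit the count was 0 of 5, with 4.25% of all summits holding a word. This 0 depends on the list that places the summit. The replicate 1 summit of lin-9 was at III:8904250, with its word at III:8904204-8904211. That of lin-53 was at I:9619941, with its word at I:9619897-9619904. Both words lie within 50 bp of those replicate 1 summits. The words of efl-1 and lin-54 do not, and no word does so in replicate 2. TTTGAA, a much commoner word, was present within 150 bp at the same 4 genes and at 43.6% of all summits, and within 50 bp at lin-9, lin-53 and lin-54 and at 13.8% of all summits. The other CHR-like word, TTCGAA, was present at 0 of 5 within 150 bp and at 18.3% of all summits. The lin-35 region held none of these 6 words within 150 bp. A match is a spelling in the reference and not a measured site, and binding of EFL-1 or LIN-54 was not measured here.

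Over promoters, taken as 250 bases before to 50 after the start, an E2F-like word was present at efl-1, lin-9 and lin-53, 3 of the 8 genes, and at 4.70% of all protein-coding promoters. TTTGAA was present in 6 of the 8, all but lin-35 and lin-52, and in 62.6% of promoters. TTCGAA was present in 1 of the 8, lin-37, and in 18.2% of promoters. Only 60 bases separate the lin-37 start from the gene before it, ZK418.5, and they hold neither TTTGAA nor TTCGAA. The words counted at lin-37 therefore fall at least partly inside ZK418.5 or lin-37 itself. The promoter window and the summit window overlap at the genes with a region, so these counts are not independent of the ones around the summits.

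lin-35, WBGene00003020, lies at I:5807709-5815637 on the plus strand and encodes the worm's pocket protein, the counterpart of mammalian Rb, p107 and p130. Its region, I:5807441-5807573, had the highest combined signal of the 8 genes. The signal, the peak caller's own measure of enrichment as deposited by the authors, was 332.8 in the combined list, 144.9 in replicate 1 and 190.8 in replicate 2. The score, which runs to 1000 and is deposited beside the signal, was 1000 in all 3. For the combined list it reflects reproducibility between the replicates, and what it was computed from in the single-replicate lists is not given in the sources used here. The summit lay 207 bp upstream of the start in the combined list, 216 bp in replicate 1 and 207 bp in replicate 2. No other region of any list had a summit within 1000 bp of lin-35, and the next in the combined ranked list, which keeps regions of all scores, lay 1258 bp downstream, inside the gene.

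The 3 MuvB genes with a region came next, in the order lin-54, lin-53 and lin-9. lin-54, WBGene00003037 at IV:13241044-13243401 on the plus strand, encodes the CHR-binding subunit, and its region IV:13240607-13240748 had a signal of 310.9 in the combined list, 167.7 in replicate 1 and 136.8 in replicate 2, with a score of 1000 in each. It was the only 1 of the 5 genes whose signal was higher in replicate 1 than in replicate 2. Its summit lay 348 bp upstream of the start in the combined list and in replicate 2, and 359 bp upstream in replicate 1.

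lin-53, WBGene00003036 at I:9618196-9619760 on the minus strand, encodes a histone-binding WD-repeat protein that also serves in NuRD and in the chromatin assembly factor CAF-1. Its region I:9619826-9620169 had a signal of 249.0 in the combined list, 103.8 in replicate 1 and 145.9 in replicate 2, again with a score of 1000 in each. The summit lay 238 bp upstream in the combined list, 181 bp in replicate 1 and 217 bp in replicate 2. rba-1, a closely related gene, follows lin-53 on the same strand with its start 1653 bp downstream of the lin-53 start. The lin-53 region itself lies on the other side, upstream of lin-53.

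lin-9, WBGene00002998 at III:8900237-8904131 on the minus strand, encodes a MuvB core subunit. Its region III:8904093-8904436 had a signal of 180.8 in the combined list, 70.8 in replicate 1 and 105.9 in replicate 2. The scores were 1000 in the combined list and in replicate 2 and 631 in replicate 1, below the 831 at which the replicate 1 thresholded list begins. The summit lay 134 bp upstream in the combined list, the closest to its gene of the 5 there, 119 bp in replicate 1 and 172 bp in replicate 2, and 39 bases of the region lay inside the gene.

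efl-1, WBGene00001161 at V:16958590-16965675 on the minus strand, encodes the E2F subunit. Its region V:16965666-16966009 had the lowest signal of the 5, at 153.1 in the combined list, 69.9 in replicate 1 and 81.3 in replicate 2. The scores were 1000, 708 and 985. The summit lay 163 bp upstream in the combined list, 159 bp in replicate 1 and 154 bp in replicate 2, and 10 bases of the region lay inside the gene.

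**Figure D1:**
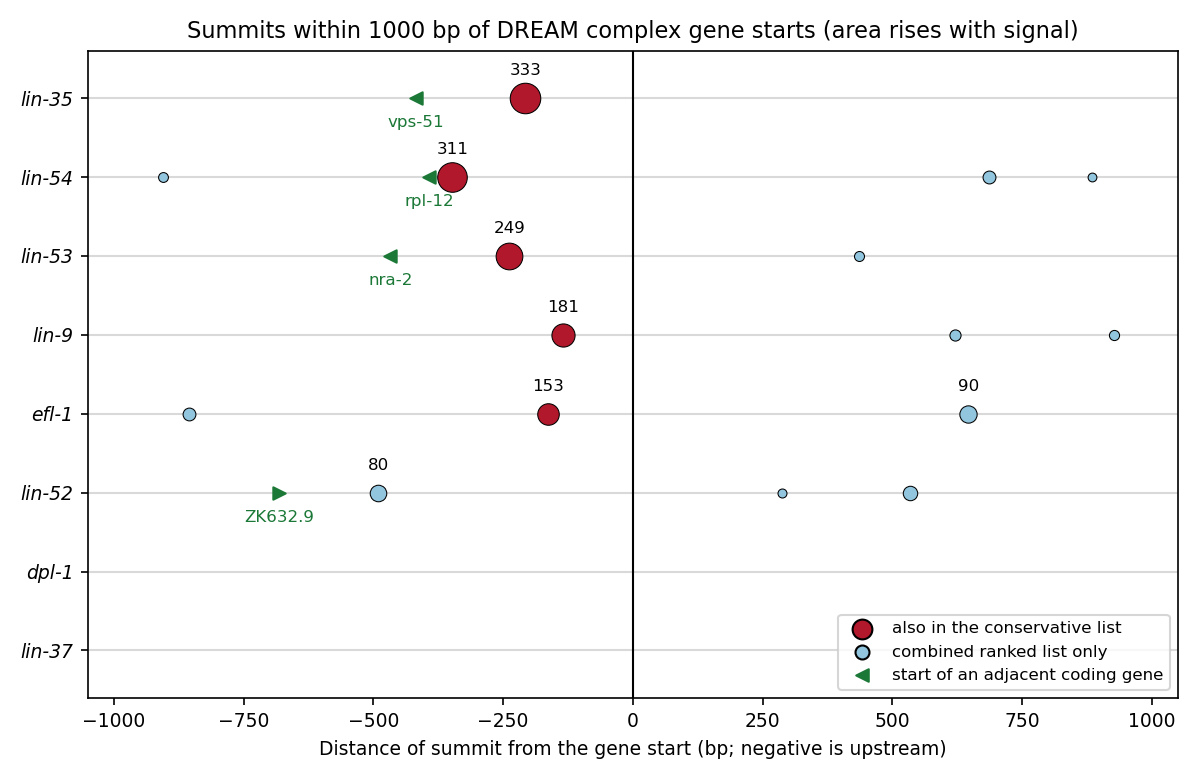
Summits of the combined ranked list within 1000 bp of each gene start, by distance in bp on the horizontal axis with 1 gene a line; red circles are also in the conservative list, blue circles are not, circle area rises with signal, and green triangles mark starts of adjacent coding genes. The 5 red circles all lie upstream of their gene, between 134 and 348 bp, and dpl-1 and lin-37 have no circle.

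The single-replicate lists split the 5 genes. The replicate 2 thresholded list held all 5, where 4.58% of protein-coding genes had a summit in the window. The replicate 1 thresholded list held 3, lin-35, lin-53 and lin-54, with 3.57% of protein-coding genes. lin-9 and efl-1 were present in replicate 1 only in its ranked list, at rank 966 and 992 of 59587 regions by signal. In the replicate 2 ranked list they stood at 691 and 1027 of 58911. The presence of lin-9 and efl-1 in a thresholded single-replicate list therefore rests on replicate 2.

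In replicate 1 lin-54 was highest, followed by lin-35, lin-53, lin-9 and efl-1, and in replicate 2 the order was lin-35, lin-53, lin-54, lin-9 and efl-1. Within each replicate lin-35 was above lin-53, lin-53 above lin-9 and lin-9 above efl-1, the last by 70.8 to 69.9 in replicate 1 and by 105.9 to 81.3 in replicate 2, and only the place of lin-54 changed. Across the replicates, the range of each gene overlapped that of its neighbour in the combined order among these 5. The lin-52 values, 39.2 in replicate 1 and 46.0 in replicate 2, lay below those of all 5. The replicate signals come from separate lists with a scale that is not stated, so the ranges also hold any difference in scale, and their overlap does not show that the genes are alike.

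Replicate 2 had the higher signal at most conservative regions, with a median ratio of replicate 2 to replicate 1 of 1.18 and 5th and 95th percentiles of 0.783 and 1.78 over 2189 nuclear regions present in both. The ratio was 1.16 at efl-1, 1.32 at lin-35, 1.41 at lin-53, 1.50 at lin-9 and 0.816 at lin-54. All 5 lay between those percentiles. lin-54 was the nearest to an end, with 6.53% of regions lower, and lin-9 had 82.7% lower.

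**Figure D2:**
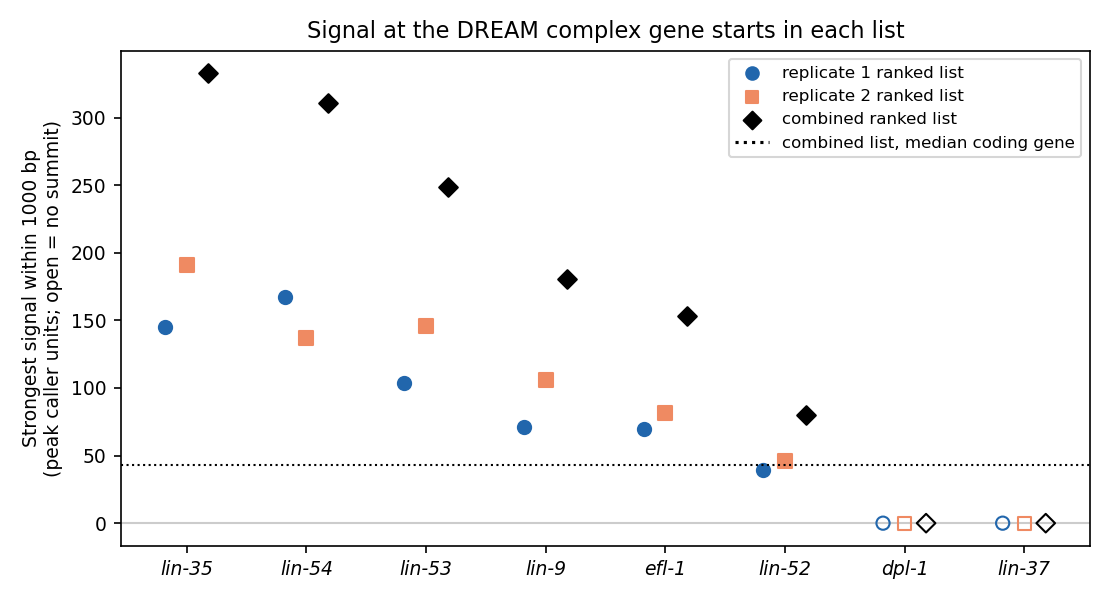
Strongest signal within 1000 bp of each gene start, in the peak caller's units on a linear axis, in the ranked lists of replicate 1 (circles), replicate 2 (squares) and both combined (diamonds); the dotted line is the median combined signal over all protein-coding genes, 43.3, and open symbols at 0 mean that no summit was listed. lin-54 alone of the 6 genes with a summit has its circle above its square.

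The combined ranked list keeps far weaker regions, 104803 in all, and 73.0% of protein-coding genes had one of its summits within 1000 bp. Of the DREAM genes 6 did, the sixth being lin-52. Ranked by their strongest summit in the window, lin-35 stood at place 170 of the 19973 genes, lin-54 at 199, lin-53 at 290, lin-9 at 519, efl-1 at 694 and lin-52 at 2840. In percent of genes with a lower value these places are 99.1 for lin-35, 99.0 for lin-54, 98.5 for lin-53, 97.4 for lin-9, 96.5 for efl-1 and 85.8 for lin-52. The median of the 8 genes was 167.0, beside a median over all genes of 43.3.

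Among regions that had passed the threshold the same signals were less extreme. The 5 genes' median was 249.0, where protein-coding genes with a conservative summit had a median of 149.5. Of the 2213 nuclear conservative regions, whose signals reached 19378, 202 were stronger than the lin-35 region, 237 than lin-54, 344 than lin-53, 580 than lin-9 and 777 than efl-1. The efl-1 region was thus stronger than 64.8% of the conservative regions and the lin-35 region stronger than 90.8%.

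**Figure D3:**
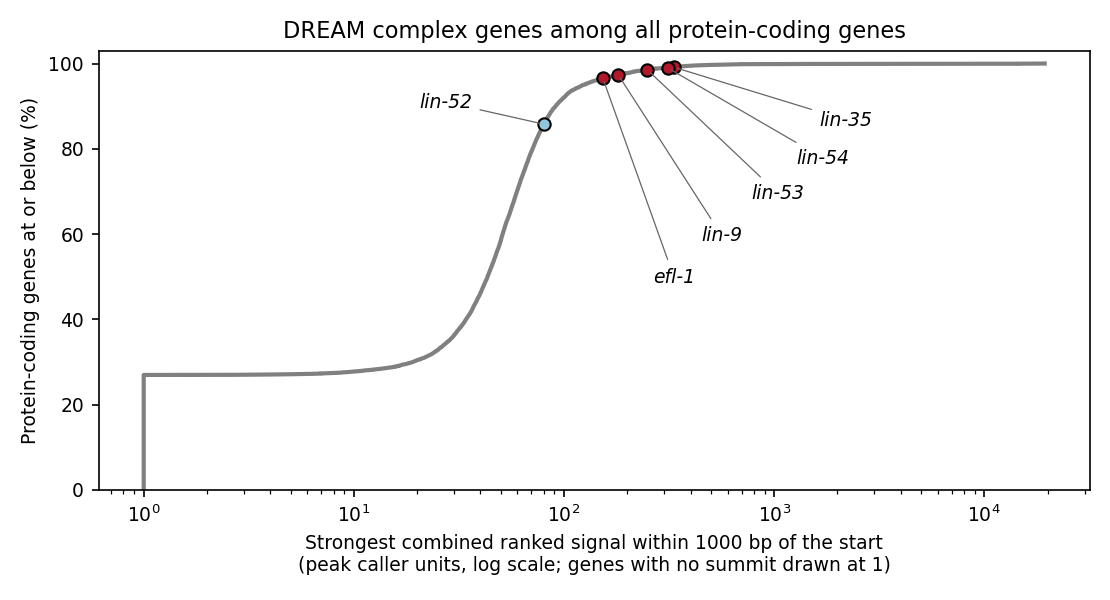
Percent of the 19973 protein-coding genes at or below each value of the strongest combined ranked signal within 1000 bp of the start (log scale, peak caller units; genes with no summit drawn at 1), with the DREAM genes that have a summit marked in red (conservative) or blue (ranked list only). The 5 red genes lie at 96.5% or higher and lin-52 at 85.8%.

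lin-35 and lin-9 did not stand apart from the other 6 genes as a pair. Their combined signals were 332.8 and 180.8, and the other 6 genes ranged from no listed summit, counted as 0, to 310.9, with a median of 116.7. lin-35 was the highest of the 8, while lin-9 lay below both lin-54 and lin-53. The pair also differed in support from replicate 1, where lin-35 had a score of 1000 and lin-9 of 631. In the conservative list lin-35, lin-9 and efl-1, 3 of the 8 genes, were themselves the nearest start to their summit, as were 4.17% of protein-coding genes for a conservative summit within 1000 bp. For lin-35 and lin-53 this depends on the list, since the replicate 1 summit of lin-35 was nearer to its divergent neighbour and the summits of lin-53 in both replicates' own lists were nearer to lin-53.

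The 5 regions differed in what else lay beside them. The lin-35 summit sat between lin-35 and vps-51, a gene for a subunit of a vesicle tethering complex that is transcribed the other way, whose start is 418 bp from that of lin-35. The summit was 207 bp from the lin-35 start and 211 bp from the vps-51 start, and in the replicate 1 list the nearer start was that of vps-51. The lin-53 summit sat in the same way between lin-53 and nra-2, at 238 and 229 bp, with 467 bp between the starts, and in both replicates' own lists the nearer start was that of lin-53. At lin-54 the summit was 348 bp from lin-54 and 45 bp from rpl-12, a gene for a protein of the large ribosomal subunit, with 393 bp between the starts. The lin-54 summit was nearer to rpl-12 in every list, while at lin-35 and lin-53 the nearer start depended on the list. For none of these 3 genes does position alone assign the region to 1 of the pair.

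The other 2 regions had no close partner. The efl-1 summit was 163 bp from efl-1 and 976 bp from fbxa-90, an F-box gene whose start is 1139 bp away on the other strand. The lin-9 summit had no other start within 1000 bp, the divergent unc-32, which encodes a vacuolar ATPase subunit, starting 1484 bp upstream of lin-9. lin-9 and efl-1, the genes without a divergent start within 1000 bp of their own, had the lowest signals of the 5.

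The weaker regions near these genes lay mostly inside them. At efl-1 a region with its summit in an intron, 646 bp downstream of the start, had a combined signal of 90.1 and a score of 463, with 50.1 in replicate 1 and 34.6 in replicate 2. A further efl-1 summit 856 bp upstream, which was 283 bp from fbxa-90, had a signal of 38.0 and a score of 45, and an overlapping region of 25.8 in replicate 2 and none in replicate 1. At lin-9 there were summits in coding exons at 620 bp, with a signal of 22.8 and a score of 45, and at 926 bp, with 14.6 and 107. Both overlapped the same replicate 1 region, with a signal of 24.1, and no replicate 2 region.

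At lin-54 the weaker summits were at 686 bp in an intron, with a signal of 38.6 and a score of 139, at 885 bp in a coding exon, with 4.64 and 139, and 905 bp upstream in an rpl-12 exon, with 12.1 and 45. The intronic one had 20.9 in replicate 1 and 21.9 in replicate 2. The upstream one lay 725 bp from tag-115, a gene beyond rpl-12. The region at 885 bp overlapped 1 of 17.8 in replicate 2 only, and the upstream one overlapped none in either replicate. The other deposited version of the combined ranked list did not hold the upstream one. There the scores at 686 and 885 bp were 227 and 151, and scores of weaker regions at other genes also differed. At lin-53 there was 1 weaker summit, in a coding exon at 436 bp, with a signal of 13.4 and a score of 45. It had no overlapping region in either replicate. At each of the 5 genes with a conservative region, that region was the strongest listed within 1000 bp, and lin-35 had nothing weaker beside it.

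lin-52, WBGene00003035 at III:9824083-9824750 on the minus strand, encodes the small MuvB subunit that in mammals contacts the pocket protein. It had no conservative summit within 1000 bp, and the nearest was 5726 bp downstream of its start. Its strongest ranked region, III:9825069-9825412, had a combined signal of 80.2 and a score of 657, with signals of 39.2 and 46.0 and scores of 85 and 180 in replicates 1 and 2. That summit was 491 bp upstream of lin-52 but lay in a coding exon of ZK632.9, the gene before it on the same strand, 191 bp inside its start. Inside lin-52 there were summits in coding exons at 534 bp, with a signal of 55.1 and a score of 238, which was 974 bp from arl-5, an Arf-like GTPase gene, and at 287 bp, with 6.10 and 238. Both overlapped 1 replicate 1 region with a signal of 32.0, and no replicate 2 region.

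lin-37, WBGene00003022 at III:7070890-7072552 on the minus strand, encodes a further MuvB subunit and had no summit within 1000 bp in any list. The nearest in the combined ranked list lay 1873 bp downstream of the start and the next 15571 bp upstream, the latter being the nearest conservative summit. A distance at least as large as 1873 bp was found at 22.8% of protein-coding starts. In the replicates' own ranked lists the nearest summits were 1893 bp and 3674 bp downstream.

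The spaces in front of lin-37 and lin-52 are shown because they are short and lie behind another gene on the same strand. ZK418.5 ends 60 bases before the annotated start of lin-37, and ZK632.9 ends 126 bases before that of lin-52. Both are read 5′ to 3′ on the minus strand of WBcel235 (RefSeq), the first at III:7072553-7072612 and the second at III:9824751-9824876, and no word of the 6 searched falls in them, so nothing is in capitals.
lin-37: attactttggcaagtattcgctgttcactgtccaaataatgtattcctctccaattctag
lin-52: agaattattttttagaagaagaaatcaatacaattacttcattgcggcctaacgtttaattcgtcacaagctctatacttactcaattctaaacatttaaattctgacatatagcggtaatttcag

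Many worm genes in such tandem arrangements are transcribed from a promoter in front of the first gene and receive a spliced leader, so the annotated start of a downstream gene need not be where transcription begins. Whether this holds for lin-37 or lin-52 was not tested. The start of ZK632.9 is 682 bp upstream of lin-52, and that of ZK418.5 is 1299 bp upstream of lin-37. The lin-52 region lies just inside the start of ZK632.9, and no listed summit lies near that of ZK418.5.

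dpl-1, WBGene00001061 at II:9169910-9172565 on the plus strand, encodes the DP partner of EFL-1. It was the gene farthest from any listed region, with the nearest combined ranked summit 10835 bp downstream and the next 42454 bp upstream, a stretch of 53.3 kb with none. The corresponding stretches were 26.7 kb in the replicate 1 ranked list and 52.1 kb in the replicate 2 ranked list, and the nearest conservative summit was 67026 bp away. The median protein-coding start lay 290 bp from a combined ranked summit, and 5.13% lay at least as far as dpl-1. There were 419 stretches over 20 kb without a summit, holding 15.3% of protein-coding starts. The dpl-1 start also lies within T23G7.2, an annotated gene on the other strand. Whether a region could have been called in this stretch was not tested, so the absence of a listed region is not a measurement of no binding.

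The arrangement of the genes was tabulated after their values had been seen. Over the genome, 3539 protein-coding genes had a divergent coding start within 1000 bp, as lin-35, lin-53 and lin-54 do, and 15.9% of them had a conservative summit. Of the genes without such a divergent start, 2477 had the end of a same-strand gene within 300 bp upstream, as lin-37 and lin-52 have. Among these 4.52% had one. Of the other 13957, among them dpl-1, efl-1 and lin-9, 5.48% had one. With ranked summits of any score these shares were 77.3%, 76.7% and 71.3%. Divergent pairs share a window, so 1 summit can count for both genes, and its part in these shares was not tested.

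Genes with similar signals in the 2 replicates were found by the smallest distance between log2 signals, leaving out genes within 5000 bp. For lin-35 these were C14B9.3 with signals of 148.5 and 192.7, mrpl-23, a mitochondrial ribosomal protein gene, with 143.7 and 196.3, and mdt-26, a Mediator subunit gene, with 149.4 and 190.7 in replicates 1 and 2, among 578 genes compared. For lin-9 they were Y24F12A.1 and ragc-1, which share 1 region, with 72.3 and 102.5, and exos-7, an exosome subunit gene, with 69.8 and 102.0, among 1860 genes. With only 2 samples such likeness reflects the level and the ratio of 2 numbers.

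Genes that act beside DREAM, or in the processes it is known to control, were described in the same way and were not tested. Over 7 related lists, 16 of 101 genes had a conservative summit, or 15.8%, beside 7.20% of all protein-coding genes. All conservative signals of these genes that are named here lay below that of lin-35. Among 12 other Rb, E2F and G1 genes there were 2, cki-1, a CDK inhibitor gene, at 141.6 and cye-1, the cyclin E gene, at 132.3. The median of their strongest ranked signals was 57.5.

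Among 14 other synMuv B genes 4 had a conservative summit, the strongest being gei-4 at 133.8 and lin-36, a THAP domain gene, at 129.6, and the list's median ranked signal was 77.4. Of 4 synMuv A genes, which act redundantly with synMuv B, none had one, with a median ranked signal of 79.5. Of 10 partners of LIN-53 in NuRD, MEC and CAF-1, 2 had one, chaf-2, a CAF-1 subunit gene, at 229.9 and egl-27 at 108.6, with a list median of 91.7. These medians lay above the 43.3 of all genes. The share with a conservative summit was 28.6% in the synMuv B list and 20% among the partners, beside 7.20% of all protein-coding genes.

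Of 19 S phase genes matched, 2 had a conservative summit, cdc-6, a replication licensing gene, at 132.8 and pcn-1, the PCNA gene, at 109.2, and the list's median ranked signal was 72.5. Of 20 mitosis genes 5 had one, the strongest being spd-1, which encodes a protein of the central spindle, at 203.1 and knl-1, which encodes a kinetochore protein, at 179.6, with a median of 68.9. Of 22 germline genes 1 had one, mex-1 at 294.8, with a median of 39.4. Of the genes named from these lists, 6 had a summit nearer to another start. The spd-1 summit was 975 bp from spd-1 and 32 bp from Y34D9A.3, the mex-1 summit 913 bp from mex-1 and 180 bp from W03C9.5, and the cye-1 summit 603 bp from cye-1 and 45 bp from pqn-21. The cdc-6 summit was 265 bp from cdc-6 and 114 bp from acin-1, the lin-36 summit 214 bp from lin-36 and 20 bp from F44B9.11, and the egl-27 summit 186 bp from egl-27 and 135 bp from C04A2.14.

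**Figure D4:**
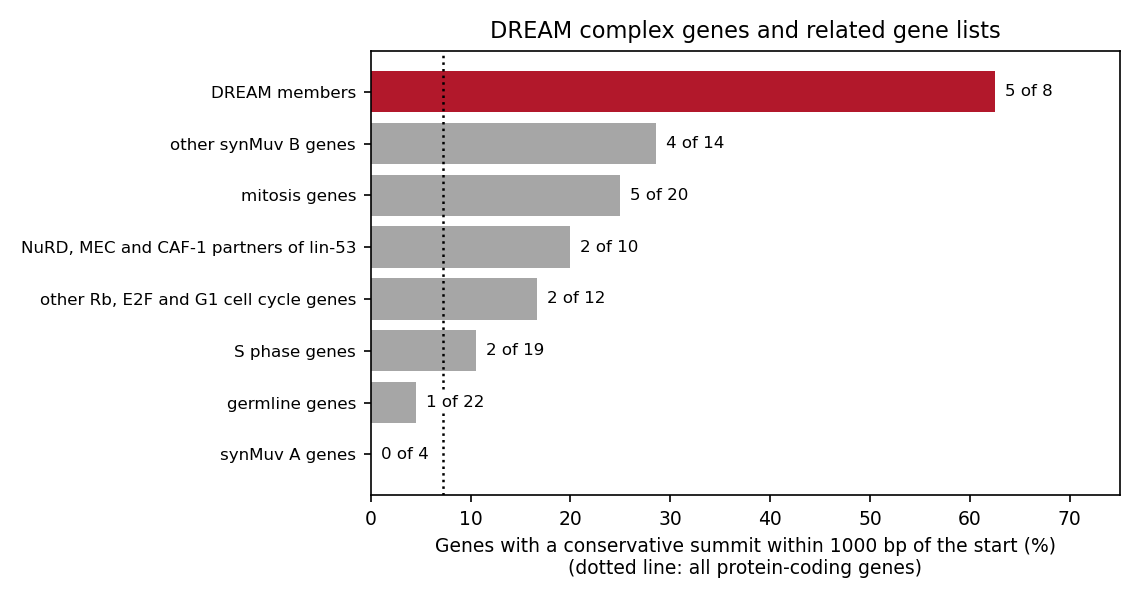
Percent of the genes of each list with a conservative summit within 1000 bp of the start (bars from 0, with counts beside them), for the DREAM genes in red and 7 related lists in grey; the dotted line is all protein-coding genes, 7.20%. The DREAM bar, 5 of 8, was selected on these data, and the synMuv A bar is 0 of 4.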

How the data were processed

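ChIP-seq regions from 2 biological replicates were analysed from 8 deposited lists on build ce11, per the labels. For each replicate and for both combined, the authors deposited a ranked list and a list thresholded by IDR, a measure of rank reproducibility. The conservative list held 2234 regions, the other combined list 2413, replicate 1 959 and replicate 2 1233. The signal value deposited by the authors is the peak caller's own, on a scale that is not stated. The score deposited by the authors runs to 1000 and begins at 830 in the conservative list. The −log10 IDR values deposited by the authors were used in no result. Read depth, aligner and peak caller are not given in the sources used here. No counting error per sample can therefore be given.

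Summits were placed against gene starts of WBcel235, the same assembly, with annotation release 115 and RefSeq sequence, in Python 3.11.15 with pandas 2.3.3 and numpy 2.4.6. Replicate signals are those of the strongest region overlapping by at least 1 bp in that replicate's ranked list. Shares use 19973 nuclear protein-coding genes. The counting was checked on simulated summits. Nothing was tested, since there is 1 group. The genes, lists, words and windows were chosen with earlier results of these data known. Named genes are the 8 members, genes starting within 1000 bp of their summits, the 3 most alike for lin-35 and lin-9, and the 2 strongest of each list with a conservative summit. unc-32, rba-1, ZK418.5, T23G7.2 and nearer starts at listed genes were named after their values were seen. Alternatives were other windows, starts, overlap rules, lists and thresholds, and each replicate alone.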

Additional observations from a re-analysis of the deposited data

How the results depend on the processing

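Of 82 alternatives, 62 gave the same value, 9 changed a count by at most 1.5 times and 11 were called moved. A count was called moved when it changed by more than 1.5 times, or from or to 0. A signal was called moved when it changed by more than the standard deviation of the gene's 2 replicate signals. Of the 9 changes not called moved, some were in the genes with a combined ranked summit. These became 7 with a window of 2000 bp and 5 with a score of at least 830, in place of 6. The others were in TTTGAA within 50 bp, 3 in place of 4, and in single genes of 5 related lists. The ratio of replicates at lin-35 and lin-54 could not be given with reciprocal overlap. The count of 5 DREAM genes with a conservative summit became 3 with the 500 strongest regions and 3 where the summit's nearest start had to be the gene's own, and ranged from 3 to 5 when 1 replicate's own list was used, the 3 being replicate 1 alone. With a window of 2000 bp the lin-37 signal became 29.9 and the lin-52 signal 86.9, and the related lists became 1 for synMuv A, 5 for the partners of LIN-53 and 4 for S phase. With a window of 500 bp the other Rb, E2F and G1 list fell to 1 and the germline list to 0. Within 50 bp of the combined summit the count of genes with an E2F-like word was 0 in place of 4. The words of lin-9 and lin-53 do lie within 50 bp of the replicate 1 summits. Limits are the 2 replicates, the unknown depth, the unstated scale of the signal, the control experiment not analysed here, and 3 of 5 regions lying between 2 starts. No paired analysis was possible because there is 1 group.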
